A study of Mus musculus with 24 samples.

Results

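ApoE4 was compared with ApoE3 in the choroid plexus of mice that were both fed a high-fat diet, on 12 of the 24 Affymetrix Mouse430A_2 arrays of the study. The members are the 6 arrays labelled HFD-apoE4 and the 6 labelled HFD-apoE3, with all probe sets other than controls that were called Present on at least 6 of the 24 arrays. All mice were C57BL and 78 weeks old, and carried a humanized ApoE3 or a humanized ApoE4 knock-in. Both groups ate the high-fat diet, and each held 3 males (replicates 1 to 3) and 3 females (replicates 4 to 6). The other 12 arrays held both genotypes on chow, again 6 each. Tissue was fresh-frozen and collected by laser capture microdissection, in which cells are cut from a section under a microscope. The composition and length of the diet, and whether each array came from a separate mouse, go unstated in the sources used here, so p-values measure the spread between samples, which may be technical. Such tissue holds several cell types, and fewer cells of a type cannot be told apart from less RNA per cell.

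The choroid plexus is a fold of epithelium over vessels and stroma in the brain ventricles, and it secretes cerebrospinal fluid. It also serves as a gate through which immune cells and immune signals reach that fluid. Apolipoprotein E carries lipids between cells of the brain, and its ApoE4 form is the main common genetic risk factor for late-onset Alzheimer's disease. Type I interferon signals through receptors on nearly every cell to transcription factors that include Stat2 and Irf9, which turn on genes against viruses. Those genes encode RNA sensors, proteins that block viral RNA or entry, enzymes that attach or remove the ubiquitin-like protein ISG15, and the class I antigen presentation machinery.

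On high-fat diet, genes of the interferon response were higher in ApoE4 than in ApoE3, with Ifit1 the largest rise among genes that passed, 6.31-fold. Asparagine synthetase (Asns) was also higher, while Wdfy1, Zfp386, the long noncoding RNAs Malat1, Neat1 and Meg3, myelin genes and a part of the macrophage genes were lower. Of 8261 genes tested, 2300 passed (27.8%) with limma at an adjusted p under 0.05, 891 higher (10.8%) and 1409 lower (17.1%) in ApoE4. Most of these differences were small, and 294 genes (3.56%) also differed at least 1.5-fold, 52 higher and 242 lower. In 722 genes (8.74%) the signals of the 6 ApoE4 arrays lay all above (303) or all below (419) those of the 6 ApoE3 arrays. The median over all genes tested was -0.05 on the log2 scale. Under quantile normalization 824 genes were higher and 788 lower, and with arrays centred on their medians 1235 were higher and 971 lower, so the split between directions rests on the scaling. Values below are deposited signals by array, as lowest, highest and median of 6, and log2 fold changes ± SE of ApoE4 over ApoE3 on the log2(signal + 16) scale, with Benjamini-Hochberg adjusted p from limma.

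Of all 13936 probe sets kept, 3678 passed (26.4%), 1444 higher and 2234 lower. These include 1203 probe sets that name several genes or none, of which 336 passed. The counts moved with a brain marker covariate: with the mean of neuron, myelin and astrocyte markers in the fit 579 genes passed, 243 higher and 336 lower. Whether that mean reflects brain tissue beside the plexus was not tested. That mean is itself lower in ApoE4, so the covariate takes up part of the genotype contrast, and for a marker gene it holds part of the gene's own value. Where the covariate ended the call of a named gene, its adjusted p or the count of its list under the covariate is given beside the result. The shares of 10.8% and 17.1% belong to the main fit. A list's count with the covariate is to be read against 243 higher and 336 lower of 8261 genes. Its counts under quantile normalization or with centred arrays are to be read against those given above for all genes.

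The labels were checked first. The array's probe set for Apoe was Absent on all 24 arrays, with signals of 2.5 to 5.9 on high-fat diet, so it does not tell the genotypes apart. The libraries differed between genotypes as whole arrays: on high-fat diet the share of probe sets called Present was 59.0% ± 1.15 (SD, n = 6) in ApoE4 and 55.4% ± 1.76 in ApoE3 (exact permutation test, two-sided, p = 0.00433, adjusted p = 0.0231 over 16 measures). The median signal was 151 ± 5.92 in ApoE4 and 173 ± 4.55 in ApoE3, without overlap (exact permutation p = 0.00216, adjusted p = 0.0231). Spiked hybridization controls averaged 11.02 ± 0.32 log2 units in ApoE4 and 11.40 ± 0.09 in ApoE3 (exact permutation p = 0.00866, adjusted p = 0.0247). The 3' to 5' ratios of Actb and Gapdh, which are higher in degraded RNA, differed by -0.11 and -0.14 log2 units and did not pass (exact permutation, adjusted p = 0.383 and 0.11). The part of these measures in the gene results was not tested beyond the fits that carry them as covariates.

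The captured tissue carried the epithelium's markers at high signal in both genotypes. Ttr, the thyroid hormone and retinol carrier that choroid plexus epithelium secretes, read 17300.0 to 25450.0 (median 17920.0) in ApoE3 and 13080.0 to 20820.0 (median 19300.0) in ApoE4, a difference of -0.10 ± 0.13 (adjusted p = 0.594). The mean log2 signal over 30 epithelial markers was 12.02 ± 0.06 (SD, n = 6) in ApoE4 and 12.05 ± 0.04 in ApoE3 (exact permutation, adjusted p = 0.383). Markers of myelin and neurons were lower in ApoE4, by 0.40 and 0.30 log2 units (exact permutation, adjusted p = 0.0247 and 0.0385). Means of other lists were lower too by the same test: T, NK and B cells (-0.39, adjusted p = 0.0231), astrocytes (-0.20, 0.0247), macrophages and microglia (-0.22, 0.0346) and neutrophils and red cells (-0.57, 0.0472). Smooth muscle and pericytes (-0.25, 0.0247) and collagens and stroma (-0.14, 0.0472) also passed. Endothelium (-0.13, 0.23) and motile cilia (-0.03, 0.157) did not. These means carry no further scaling, and array medians differed. Under quantile normalization the list's median log2 fold change moved from -0.50 to -0.30 for myelin and from -0.30 to -0.07 for neurons. It moved from -0.415 to -0.167 for T, NK and B cells and from -0.16 to 0.01 for macrophages. Neutrophils and red cells moved from -0.65 to -0.48 and smooth muscle from -0.29 to -0.16. Stroma moved from -0.22 to -0.17 and astrocytes from -0.12 to -0.15.

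**Figure D1:**
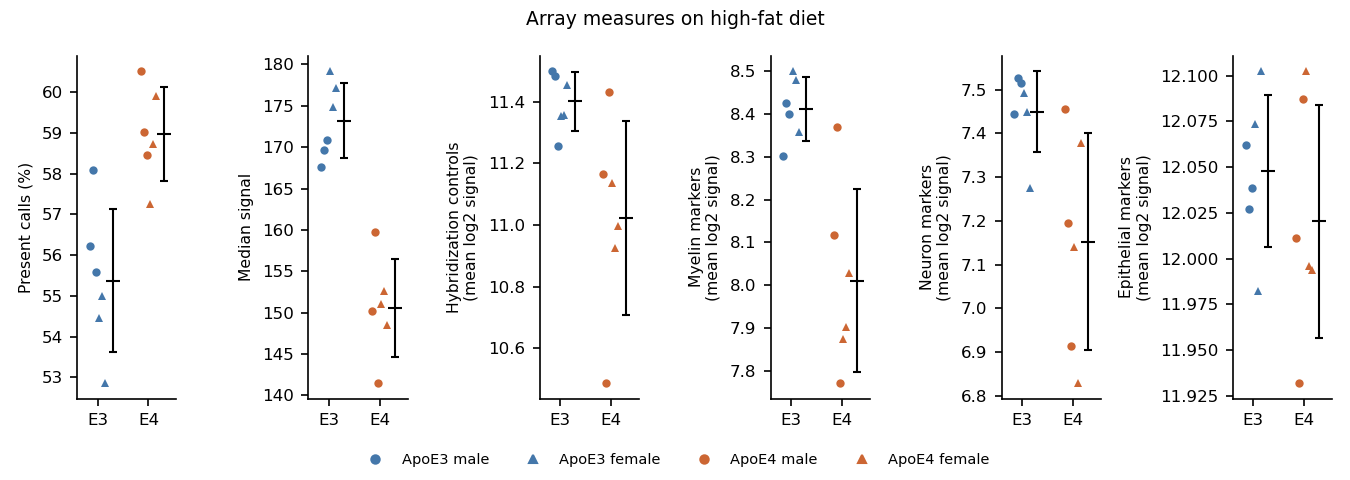
Per-array measures on high-fat diet for 6 ApoE3 (E3) and 6 ApoE4 (E4) arrays, circles for males and triangles for females, with mean and SD beside them; the axes do not start at 0. Median signals do not overlap between genotypes, while epithelial marker means do.

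The promoters of the 3 interferon-induced genes of largest rise whose promoter holds the motif GAAANNGAA are shown here, since this motif is the core of the interferon-stimulated response element through which type I interferon acts on its target genes. They are the RefSeq promoter windows on GRCm38.p6, 250 bases before to 50 after the start of the gene, given 5' to 3' on the strand of the gene, with matches on either strand in capitals. The Ifit1 window lies at chr19:34640639-34640938 on the plus strand and holds 3 matches on the opposite strand, the first 2 of which overlap. The Ifit3 window lies at chr19:34583279-34583578 on the plus strand and holds 3 on the opposite strand, and the Ddx60 window at chr8:61927837-61928136 on the plus strand holds 2 on the gene's own strand. The Asns window, at chr6:7693160-7693459 on the minus strand, holds 1 match on the gene's strand to TGATGNAA, the core of the element through which Atf4 and C/EBP proteins act on amino acid response genes.
Ifit1: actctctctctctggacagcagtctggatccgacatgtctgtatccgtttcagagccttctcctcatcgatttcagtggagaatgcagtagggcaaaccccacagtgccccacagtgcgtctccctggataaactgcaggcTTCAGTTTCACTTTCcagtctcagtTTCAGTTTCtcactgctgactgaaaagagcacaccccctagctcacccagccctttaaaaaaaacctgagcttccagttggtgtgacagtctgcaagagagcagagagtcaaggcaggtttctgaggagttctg
Ifit3: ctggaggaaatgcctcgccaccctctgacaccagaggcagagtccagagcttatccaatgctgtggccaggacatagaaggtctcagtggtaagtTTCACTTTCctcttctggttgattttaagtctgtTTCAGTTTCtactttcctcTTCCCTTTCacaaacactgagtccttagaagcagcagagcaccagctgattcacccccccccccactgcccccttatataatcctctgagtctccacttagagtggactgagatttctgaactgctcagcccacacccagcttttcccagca
Ddx60: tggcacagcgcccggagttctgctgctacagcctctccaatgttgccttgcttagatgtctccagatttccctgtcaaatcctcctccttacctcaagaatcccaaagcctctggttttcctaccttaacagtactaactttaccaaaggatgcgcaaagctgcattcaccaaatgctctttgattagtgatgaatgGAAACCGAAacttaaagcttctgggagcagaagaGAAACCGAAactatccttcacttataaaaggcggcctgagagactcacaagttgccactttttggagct
Asns: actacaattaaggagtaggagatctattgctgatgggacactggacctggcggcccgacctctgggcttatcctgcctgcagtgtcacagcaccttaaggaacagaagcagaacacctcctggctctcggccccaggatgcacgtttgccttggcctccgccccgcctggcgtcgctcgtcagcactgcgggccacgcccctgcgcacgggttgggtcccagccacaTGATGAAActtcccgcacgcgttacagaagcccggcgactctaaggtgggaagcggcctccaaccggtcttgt

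GAAANNGAA, searched on both strands, was in 2812 of 32851 promoters of the table (8.56%) and in 573 of the 6753 tested genes with a promoter there (8.49%). Among the 42 interferon-induced genes with a promoter in the table it was in 21 (50%), in 18 of the 29 that rose (62.1%) and in 3 of the 13 that did not (23.1%). TGATGNAA was in 1304 of 32851 promoters (3.97%) and in 7 of the 24 listed amino acid response genes (29.2%). A match is a description of these letters and not a binding site.

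Sensors of RNA and DNA stand at the head of the response. Of 7 tested genes in the list of sensors and their signalling partners 4 rose and 0 fell, against 10.8% and 17.1% of all genes. The list median was 0.43. Ifih1, the cytosolic sensor of long double-stranded RNA also called MDA5, read 820.1 to 1318 (median 946) in ApoE3 and 1780.0 to 2796 (median 1993) in ApoE4. The groups did not overlap, and the difference was 1.04 ± 0.11 (adjusted p = 7.84e-07). Tlr3, the endosomal receptor for double-stranded RNA, rose by 0.64 ± 0.08 (adjusted p = 5.93e-06), but its other probe set did not pass. Trim25, a ubiquitin ligase that acts on the sensor RIG-I, rose by 0.53 ± 0.09, and the RNA-activated kinase Eif2ak2 by 0.43 ± 0.12, with another probe set of Eif2ak2 at -0.03. Eif2ak2 did not pass with the hybridization control covariate or with the mean of its probe sets.

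Of 15 tested receptors, kinases and transcription factors of interferon signalling, 3 rose and 4 fell, against 10.8% and 17.1% of all genes, and 8 did not pass (median -0.11). The 3 that rose are all factors of the type I response. Irf7, which amplifies interferon production, read 197 to 372 (median 236) in ApoE3 and 429 to 927 (median 726) in ApoE4, without overlap (1.37 ± 0.19, adjusted p = 4.25e-05). Irf9 rose by 0.52 ± 0.12 (adjusted p = 0.00327, and 0.0849 with the brain marker covariate). Stat2 rose by 0.55 ± 0.19 (adjusted p = 0.0299), a call that was lost in 5 of the 12 fits that left out 1 high-fat array, at most at an adjusted p of 0.0737 without ApoE3 array 1, and with the brain marker covariate (0.183). Stat2 did not pass with the hybridization control covariate either. The 4 falls, from -0.25 to -0.51, numbered 2 without ApoE3 arrays 1, 3 or 5 or ApoE4 arrays 2 or 3 and 0 with the brain marker covariate. They include the receptor subunit Ifnar1 (-0.25, adjusted p = 0.0266, and 0.0764 without ApoE4 array 3).

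Among Ifit and OAS genes, 5 of 7 tested rose and 0 fell (median 1.25), against 10.8% and 17.1% of all genes. Ifit1, which binds viral RNA that lacks host cap marks, read 384 to 721 (median 626) in ApoE3 and 2835 to 5236 (median 3789) in ApoE4. Its lowest ApoE4 array lay far above its highest ApoE3 array, and the difference was 2.66 ± 0.24, 6.31-fold (adjusted p = 7.84e-07). Ifit3, its partner protein, read 456 to 884 (median 756) and 2744 to 5056 (median 3686), also without overlap (2.37 ± 0.31, adjusted p = 4.22e-05). Oasl2, a protein related to the oligoadenylate synthetases, read 175 to 334 (median 221) and 604 to 1434 (median 1099) (2.07 ± 0.22, adjusted p = 2.08e-06). Oas1a, which makes the oligoadenylates that activate RNase L, was Absent on all 6 ApoE3 arrays and at least 2.37-fold higher in ApoE4 (adjusted p = 3.65e-05). That bound equals the fitted fold, since the gene's Absent signals exceeded the lowest Present signal, and leaves out the fold's error. The 6 ApoE4 arrays of Oasl2 and of Oas1a were all above the 6 ApoE3 arrays.

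Interferon-induced GTPases attack the membranes around intracellular pathogens. Of 10 tested 7 rose and 0 fell (median 0.91), against 10.8% and 17.1% of all genes. Gbp3, a guanylate-binding protein, read 347 to 653 (median 403) in ApoE3 and 958 to 1919 (median 1864) in ApoE4, without overlap (1.82 ± 0.24, adjusted p = 4.93e-05). Irgm1, an immunity-related GTPase, rose by 1.04 ± 0.17, also without overlap. Gbp6, Gbp7, Igtp, Iigp1 and Irgm2 rose by 0.86 to 0.95 with overlap, and Iigp1 did not pass with the brain marker covariate (adjusted p = 0.0707). A second probe set of Gbp7 did not pass, at -0.25, nor did Gbp7 with the mean of its probe sets. With the hybridization control covariate Gbp6 and Iigp1 did not pass.

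The effectors made up the longest of the interferon lists. Of 30 tested 20 rose and 1 fell, against 10.8% and 17.1% of all genes, and 9 did not pass (median 0.64). Usp18, which removes ISG15 from proteins and restrains the type I receptor, read 353 to 727 (median 556) in ApoE3 and 1735 to 3226 (median 2324) in ApoE4, without overlap (2.15 ± 0.23, adjusted p = 3.1e-06). The helicase Ddx60 read 41.5 to 163 (median 77.7) and 291 to 477 (median 373), and its 6 ApoE4 arrays were above all 6 ApoE3 arrays (1.98 ± 0.22, adjusted p = 2.35e-06). Bst2, or tetherin, which holds budding viruses at the cell surface, read 1568 to 2491 (median 2256) and 3850.0 to 5958 (median 4796) (1.19 ± 0.10) and had the smallest adjusted p of all interferon-induced genes, 2.6e-08. Ifitm3, which blocks virus entry from endosomes, rose by 0.85 ± 0.11, Rsad2 (viperin) by 1.29 ± 0.14 and Ifi27l2a by 1.68 ± 0.18, each without overlap. The 1 that fell was Daxx, a histone chaperone, by 0.23 on the log2 scale (adjusted p = 0.0298, and 0.0783 without ApoE4 array 1), named after its value was seen.

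Over these 4 lists from Ifit genes to effectors and sensors, 36 of 54 tested genes rose and 1 fell, against 10.8% and 17.1% of all genes. The median was 0.66, against -0.05 over all genes. In 23 of the 54 the ApoE4 arrays were all above the ApoE3 arrays and in 0 all below, against 303 and 419 of all 8261 genes. The mean log2 signal of the 54 genes ran from 8.45 to 8.93 over the ApoE3 arrays and from 9.15 to 9.54 over the ApoE4 arrays. The medians in males (0.63) and females (0.65) were close to each other, and under quantile normalization 36 rose and 0 fell. With the mean signal of brain markers as a covariate 30 rose and 0 fell. These lists were chosen with earlier results of these arrays known, so their direction is a description.

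**Figure D2:**
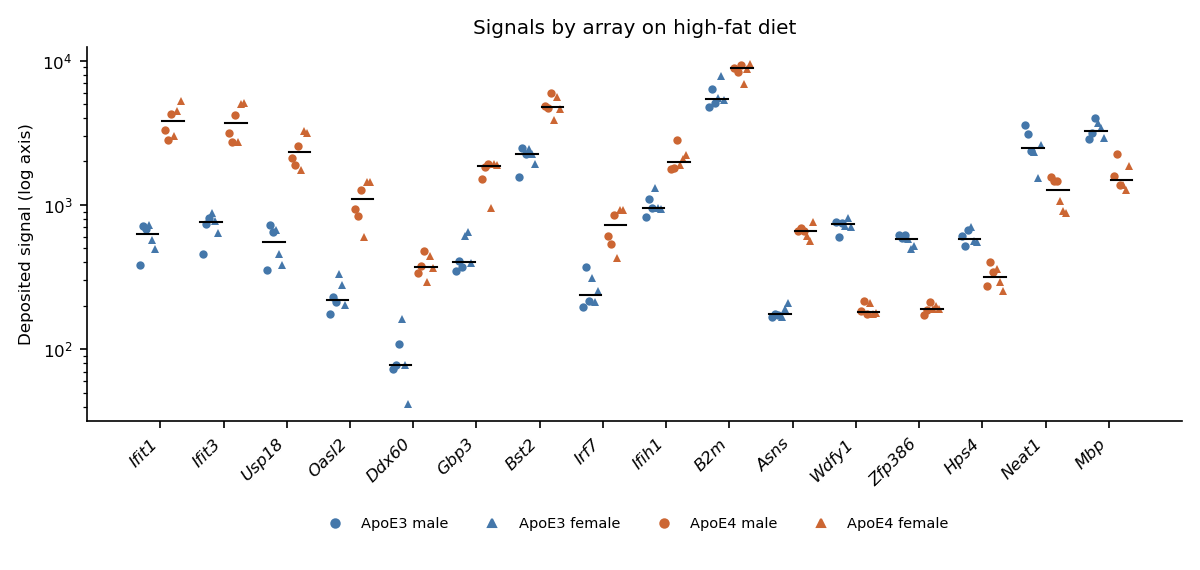
Deposited signals on a log axis for 16 genes on the 6 ApoE3 (blue) and 6 ApoE4 (orange) arrays on high-fat diet, circles for males and triangles for females, black lines for medians. From Ifit1 to Ifih1 and for Asns every ApoE4 array is above every ApoE3 array, from Wdfy1 to Hps4 and for Mbp every one is below, and for B2m and Neat1 the groups overlap.

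Class I antigen presentation, which shows peptides from inside the cell to T cells, had a smaller median. Of 13 tested genes 4 rose and 0 fell (median 0.21), against 10.8% and 17.1% of all genes. The rises numbered 2 without any 1 of ApoE3 arrays 1, 2, 3 or 4 or ApoE4 arrays 1 or 3. B2m, the constant chain of class I molecules, read 4755 to 7757 (median 5438) in ApoE3 and 6927 to 9456 (median 8833) in ApoE4, with overlap on some arrays (0.58 ± 0.11, adjusted p = 0.000818). Psme1, a proteasome activator subunit, rose by 0.30 ± 0.07 (adjusted p = 0.00299, and 0.17 with the brain marker covariate). Of 6 class II genes 1 fell and 0 rose (0 to 2 falls without 1 array), while with the covariate 1 rose and 0 fell and the median turned from -0.15 to 0.15. Of 11 complement genes 1 rose and 0 fell, Cd55 (0.28, adjusted p = 0.0115, and 0.113 with the covariate), which protects cells from complement.

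The constitutive proteasome degrades ubiquitin-tagged proteins. Of its 31 subunits 14 rose and 1 fell, against 10.8% and 17.1% of all genes, and 16 did not pass (median 0.21, all genes -0.05). Psmc6, an ATPase of the regulatory particle, read 1386 to 1692 (median 1566) in ApoE3 and 1869 to 2558 (median 1972) in ApoE4, without overlap (0.40 ± 0.07, adjusted p = 0.000232). The core subunit Psma4 (0.31) and the lid subunit Psmd13 (0.35) rose as well. The 1 that fell was Psmc4, an ATPase, by 0.28 (adjusted p = 0.0405, and 0.112 without ApoE4 array 6), named after its value was seen. With the brain marker covariate 2 subunits rose, Psmc6 (adjusted p = 0.0361) among them, and 1 fell. Psma4 and Psmd13 did not pass there (adjusted p = 0.0615 and 0.199). On chow the list's median was 0.08.

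Asns, which makes asparagine, was Absent on all 6 ApoE3 arrays at 167 to 209 (median 175) and read 566 to 767 (median 661) in ApoE4. Its Absent signals lay above each array's lowest Present signal, so the bound equals the fitted fold and leaves out its error. By that bound Asns was at least 3.44-fold higher (adjusted p = 7.79e-13), and its second probe set rose too, by 2.96. On chow the difference was 1.74. Of 27 tested genes of the Atf4 amino acid response, Asns included, 5 rose and 5 fell (median -0.01), against 10.8% and 17.1% of all genes. The rises numbered 3 without ApoE3 array 1 or ApoE4 array 4. The serine synthesis enzymes Phgdh (0.45) and Psat1 (0.38) rose. The factor Atf5 (-0.39), the phosphatase subunit Ppp1r15a (-0.36) and the tryptophanyl-tRNA synthetase Wars (-0.49) fell. Phgdh and Wars did not pass with the brain marker covariate (adjusted p = 0.219 and 0.079).

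A further 3 genes known from these data to differ by genotype on either diet were lower. Wdfy1, an adaptor in Toll-like receptor signalling, read 597 to 816 (median 734) in ApoE3 and 174 to 215 (median 181) in ApoE4 (-1.85 ± 0.09, adjusted p = 9.78e-14, the smallest of all genes). Zfp386, a zinc finger protein, read 494 to 623 (median 584) and 174 to 212 (median 190.1) (-1.49 ± 0.09, adjusted p = 7.79e-13). Hps4, which serves the biogenesis of lysosome-related organelles, read 519 to 698 (median 582) and 254 to 400.1 (median 316) (-0.89 ± 0.10, adjusted p = 1.48e-06). For each of the 3, all ApoE4 arrays lay below all ApoE3 arrays, and the values on chow were -1.93, -1.61 and -0.69. The second probe sets of Wdfy1 and Zfp386 fell by 1.20 and 1.03.

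Apoe lies on chromosome 7, and Asns, Wdfy1, Zfp386 and Hps4 lie on chromosomes 6, 1, 12 and 5. Among the 20 annotated genes on each side of Apoe on chromosome 7, 13 were tested, 0 rose and 4 fell (30.8%), against 27.8% of all genes and 33.1% of the 556 tested on chromosome 7. The 4 were the muscle creatine kinase Ckm (-0.52), the adhesion molecules Nectin2 (-0.42) and Pvr (-0.36, adjusted p = 0.0239, and 0.0686 without ApoE3 array 5), and Cblc, a ubiquitin ligase (-0.45). Another probe set of Nectin2 was at 0.22, and Nectin2 did not pass with the mean of its probe sets (-0.10) or under quantile normalization (-0.27), where Ckm and Pvr did not pass either. Under the brain marker covariate Pvr passed, and Ckm, Nectin2 and Cblc did not (adjusted p = 0.0812, 0.119 and 0.148).

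Long noncoding RNAs were lower as a small list: of 7 tested 5 fell and 1 rose (median -0.67), against 17.1% and 10.8% of all genes. With the brain marker covariate 2 fell and 1 rose (median -0.52). The list includes Xist, whose signals on high-fat diet did not exceed 257 on male arrays and were at least 6470 on female arrays. It also includes Snhg1, for which other probe sets rose by 0.51 and 0.58, while those at -0.08 and -0.31 did not pass. Malat1, a nuclear RNA of splicing speckles, read 329 to 634 (median 574) in ApoE3 and 85.8 to 419 (median 189.7) in ApoE4 (-1.34 ± 0.32, adjusted p = 0.00481). The groups overlapped, and its 3 other probe sets fell by 1.30, 1.82 and 0.64. Its difference was -0.56 ± 0.38 in males and -2.12 ± 0.38 in females, and the difference between sexes did not pass (adjusted p = 0.977). Under the brain marker covariate it was at -1.23 and did not pass (adjusted p = 0.0838). Neat1, the scaffold of nuclear paraspeckles, read 1528 to 3565 (median 2465) and 881 to 1566 (median 1261) (-1.06 ± 0.15, adjusted p = 8.33e-05), with overlap. Meg3, a transcript of an imprinted locus, read 1514 to 2460.0 (median 1866) and 715 to 1420.0 (median 934), with all ApoE4 arrays below (-0.98 ± 0.15), and its 3 other probe sets fell too. Gas5, a host of small nucleolar RNAs, rose by 0.36 ± 0.07. Of its 3 other probe sets 1 rose by 0.41, and those at -0.12 and 0.08 did not pass. With the covariate Neat1, Meg3 and Gas5 passed (adjusted p = 0.00699, 0.0169 and 0.0143).

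**Figure D3:**
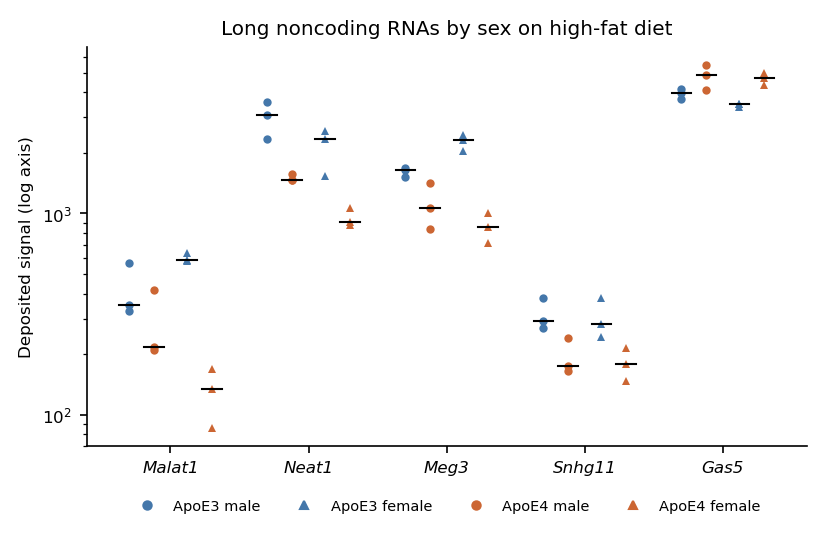
Deposited signals on a log axis of 5 long noncoding RNAs on high-fat diet, split by genotype (blue ApoE3, orange ApoE4) and sex (circles 3 males, triangles 3 females per genotype), black lines for medians. In Malat1 the ApoE3 and ApoE4 females are further apart than the males, which overlap.

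Genes of splicing and mRNA processing, 46 tested, held 12 falls and 2 rises (median -0.09), where 17.1% of all genes fell and 10.8% rose. The list held 6 falls and 7 rises with arrays centred on their medians and 3 falls and 0 rises with the brain marker covariate. Snrnp70, the core protein of the U1 particle, read 850.1 to 1098 (median 978) in ApoE3 and 517 to 747 (median 659) in ApoE4, without overlap (-0.62 ± 0.09, adjusted p = 2.88e-05). It passed with the covariate as well (adjusted p = 0.00403).

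Markers of other cell types that the captured tissue can hold fell in part, and outside myelin most members did not pass. For myelin, 5 of 9 tested genes fell and 1 rose (median -0.50), against 17.1% and 10.8% of all genes. The summed signal of the list ran from 5070 to 6360 over ApoE3 arrays and from 3250 to 4790 over ApoE4 arrays. Mbp, a structural protein of myelin, read 2863 to 3972 (median 3269) and 1271 to 2243 (median 1481), without overlap (-1.05 ± 0.17, adjusted p = 0.000206), and its 5 other probe sets fell as well. Mobp, another myelin protein, fell by 0.94 and the glial factor Sox10 by 0.54. The 1 that rose was Cnp (0.29, adjusted p = 0.036, and 0.115 without ApoE3 array 6), and another probe set of it fell by 0.30, so its direction is not settled. Adding the brain marker covariate left Mbp past the threshold at -0.70 (adjusted p = 0.0282), while Mobp and Sox10 did not pass (adjusted p = 0.129 and 0.0685).

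Counts of neuron and astrocyte markers are read against the 17.1% of all genes that fell. Among neuron markers 4 of 17 tested fell and 0 rose (median -0.30), with summed signals of 3130 to 3710 in ApoE3 and 2150 to 3930 in ApoE4. The neurofilament Nefh fell by 1.19 ± 0.33 with overlap, and the synaptic vesicle protein Syp by 0.61. Gria2, a glutamate receptor subunit, fell by 1.12, and its other probe set did not pass at -0.08. Of 13 astrocyte markers 2 fell, below that share. They were the water channel Aqp4, by 0.47, and Mt3, a zinc-binding metallothionein of brain. Mt3 read 607 to 1149 (median 858) in ApoE3 and 297 to 460.5 (median 392) in ApoE4 without overlap (-1.12 ± 0.13, adjusted p = 3.1e-06). With the brain marker covariate Mt3, Gria2 and Syp passed (adjusted p = 0.000746, 0.00123 and 0.0209), and Nefh and Aqp4 did not (adjusted p = 0.346 and 0.642).

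Macrophage and microglia markers held 9 falls and 0 rises among 28 tested, where 17.1% of all genes fell. The list's median was -0.16, and 0.01 in males and -0.25 in females. Stab1, a scavenger receptor of tissue macrophages, read 139 to 228 (median 194) in ApoE3 and 73.6 to 120.1 (median 93.5) in ApoE4, without overlap (-0.86 ± 0.14, adjusted p = 9.74e-05). F13a1, a clotting factor subunit that such macrophages make, read 129 to 266 (median 190.2) and 40.1 to 136 (median 84.7), with overlap (adjusted p = 0.00042). The haemoglobin receptor Cd163 fell by 0.58. Under quantile normalization the list held 4 falls. Without ApoE3 arrays 1 or 4 or ApoE4 array 5 it held 5 falls, and with the brain marker covariate 2, Stab1 and F13a1 (adjusted p = 0.015 and 0.00754). Summed over the list, signals ran from 9900 to 14200 in ApoE3 and from 9890 to 12900 in ApoE4, so the sums overlapped. Trem2, a lipid-sensing receptor of phagocytes, was Absent on all 24 arrays.

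Blood cell and inflammation counts are likewise read against the 17.1% of all genes that fell. Of 9 tested markers of T, NK and B cells 2 fell and 0 rose, with summed signals of 1150 to 1480 in ApoE3 and 795 to 1170 in ApoE4. That count was 0 under quantile normalization, 0 without ApoE3 array 4 or ApoE4 array 1 and 5 without ApoE4 array 2. Of 4 tested markers of neutrophils and red cells 1 fell, the granule protein Ngp (-0.71). Genes of inflammation, adhesion and NF-kB held 7 falls and 0 rises among 17 tested (median -0.37, and -0.12 on chow), and 4 falls without ApoE4 array 5. The NF-kB subunit Rela fell by 0.49, the interleukin receptor Il6ra by 0.71, the adhesion molecule Icam1 by 0.52 and the cytokine Il1b by 0.53. Under the brain marker covariate Rela and Il6ra passed (adjusted p = 0.0158 and 0.0282), and Icam1 and Il1b did not (adjusted p = 0.194 and 0.0624).

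Genes of the vessel wall and stroma are set against the 17.1% of all genes that fell. Among smooth muscle and pericyte genes 7 of 15 fell and 0 rose (median -0.29), among them the contractile proteins Acta2 (-0.43), Myh11 (-0.50) and Des (-0.52). That count was 4 without ApoE3 array 4, 2 under quantile normalization and 0 with the brain marker covariate (adjusted p = 0.266, 0.147 and 0.103). Among collagens and stroma 8 of 30 fell and 1 rose (median -0.22), and with the brain marker covariate 2 fell and 4 rose. The laminin chain Lamb2 fell by 0.57 and passed there too (adjusted p = 0.0385). The small proteoglycan Ogn rose by 0.52 ± 0.10, with its other probe set at 0.79, and by 0.71 with the covariate. Of 19 endothelial genes 2 fell, below that share, and 1 rose (1 to 3 falls and 0 to 1 rises without 1 array, and 0 of each with the covariate), with the secreted vessel protein Egfl7 at -0.59 ± 0.12 (adjusted p = 0.00104, and 0.0616 with the covariate), and its 3 other probe sets did not pass.

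**Figure D4:**
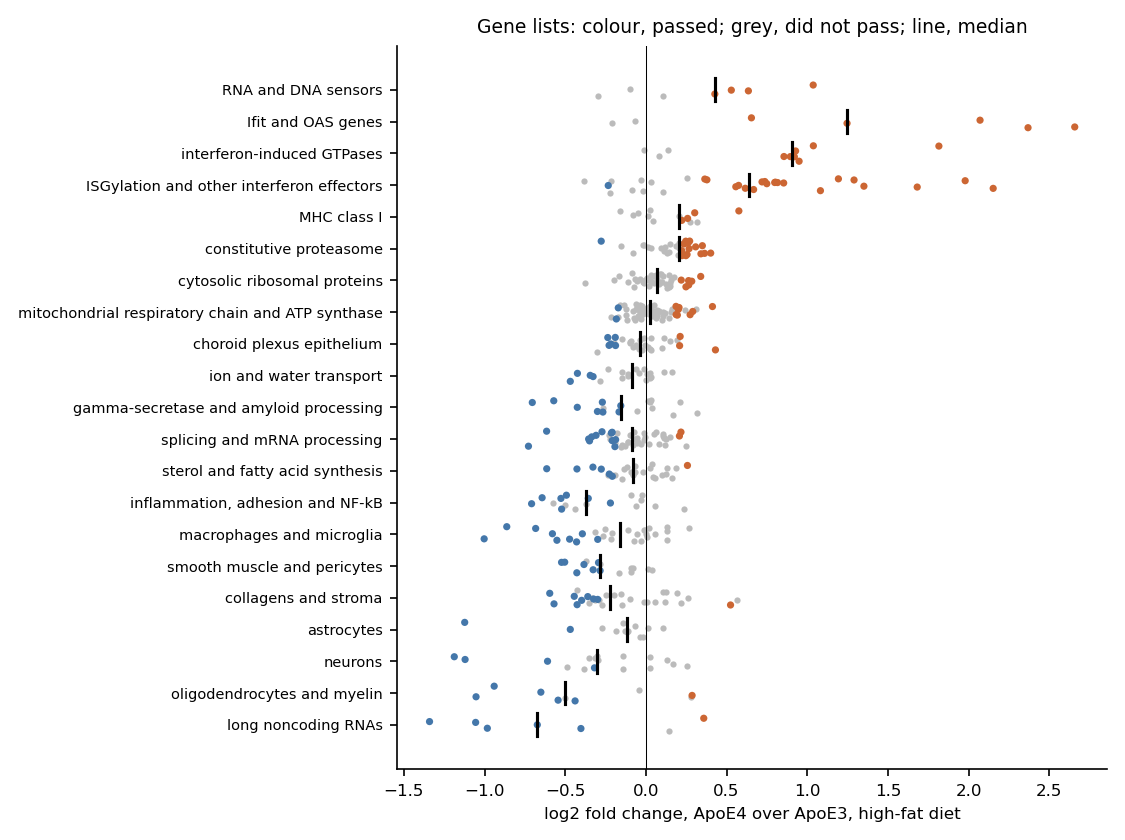
Log2 fold change of ApoE4 over ApoE3 on high-fat diet for every tested gene of 21 lists, orange where it passed higher, blue where it passed lower and grey where it did not pass, with a black line at the list median. Ifit and OAS genes reach furthest to the right, at 2.66, and long noncoding RNAs furthest to the left among the lists drawn, at -1.34.

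In the epithelium itself 22 of 30 marker genes did not pass, 3 rose and 5 fell (median -0.04). These shares lie near those of all genes, 10.8% higher and 17.1% lower, against which the other lists here are read too. The epithelial list held 1 fall without ApoE3 array 1 and 0 rises and 0 falls with the brain marker covariate. Fewer of all genes passed with that covariate too. With arrays centred on their medians 5 rose and 1 fell, so the balance of directions rests on the scaling. The folate receptor Folr1 rose by 0.21 ± 0.06 and Cltrn, a relative of angiotensin-converting enzyme, by 0.43 ± 0.12, while the endocytic adaptor Dab2 fell by 0.23. Of 20 ion and water transport genes 4 fell and 0 rose, among them the anion exchanger Slc4a2 (-0.33) and the potassium-chloride cotransporter Slc12a7 (-0.34). With the covariate none of these 5 genes passed (adjusted p from 0.0988 for Dab2 to 0.222 for Cltrn). Another probe set of Slc12a7 was at -0.08 (adjusted p = 0.649), and Slc12a7 did not pass with the mean of its probe sets. Of 16 junction genes 1 rose and 3 fell, and without 1 array 0 to 1 rose and 1 to 3 fell. Of 18 genes of motile cilia 1 rose and 2 fell, with 1 to 3 falls without 1 array. Of 22 solute and drug transporters 3 rose and 3 fell, with 0 to 3 rises and 1 to 4 falls. With arrays centred on their medians the junction genes held 3 rises and 0 falls and the solute and drug transporters 3 and 1.

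Genes of lipid transport and synthesis, the field in which ApoE acts, are read against the 17.1% of all genes that fell. Of 17 LXR targets and efflux genes 3 fell and 0 rose (median -0.18), a share near that background, and 6 fell without ApoE4 array 2. The transporter Abca7, another Alzheimer's risk gene, fell by 0.51 ± 0.08 (adjusted p = 0.000102, and 0.00162 with the brain marker covariate). Among 13 receptors for ApoE and lipoproteins 4 fell and 0 rose (median -0.24), which include Stab1 and Lrp6 (-0.24, adjusted p = 0.0935 with the covariate). Of 9 apolipoprotein and lipid transfer genes 4 fell and 0 rose, but 0 fell without ApoE3 array 3 or ApoE4 array 6 and with the covariate. In sterol and fatty acid synthesis 6 of 28 fell and 1 rose (median -0.08), again near the background, and 3 fell with arrays centred on their medians and without ApoE3 arrays 1 or 4 or ApoE4 arrays 1 or 3. Dhcr7, the last enzyme of cholesterol synthesis, was at -0.61 ± 0.14 and passed with the covariate (adjusted p = 0.00918). Fatty acid oxidation genes split, with 4 rises and 3 falls among 24 tested (2 to 6 and 1 to 3 without 1 array, 7 and 1 with centred arrays, and 0 of each with the covariate).

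Amyloid processing genes were lower in 8 of 17 tested, and 0 rose (median -0.16), against 17.1% lower and 10.8% higher of all genes. They include 4 subunits of gamma-secretase, the membrane protease that makes the last cut in amyloid precursor protein. Psenen read 4466 to 4832 (median 4526) in ApoE3 and 3211 to 3617 (median 3397) in ApoE4, without overlap (-0.43 ± 0.06, adjusted p = 1.45e-05). Ncstn fell by 0.70, Psen2 by 0.57 and Aph1a by 0.30. Other probe sets of Aph1a, at -0.29 and -0.20, did not pass (adjusted p = 0.215 and 0.182). With the brain marker covariate 4 of the 17 fell, and these were the same 4 subunits (adjusted p from 0.000324 for Psenen to 0.0478 for Psen2). The precursor App was at -0.16 ± 0.05 (adjusted p = 0.0324, and 0.103 without ApoE4 array 4). Its relative Aplp2 fell by 0.27, but another probe set of Aplp2 rose by 0.61, and with the covariate it did not pass (adjusted p = 0.0523). The list held 5 falls without ApoE3 array 1, and 5 falls and 2 rises with arrays centred on their medians.

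Genes of protein synthesis and respiration had small median differences. Counts here are read against the 10.8% of all genes that rose and the 17.1% that fell. The shares of rises in the ribosomal, respiratory chain and lysosomal lists lay near that background. Of 42 cytosolic ribosomal protein genes 6 rose and 0 fell (median 0.07), and 11 rose without ApoE4 array 2, with Rplp0 of the ribosomal stalk at 0.34 ± 0.07. Of 67 respiratory chain and ATP synthase genes 9 rose and 2 fell (median 0.03), with Ndufa3 of complex I at 0.41 ± 0.08. That count of rises was 14 without ApoE4 array 2 and 5 without ApoE3 array 4 or ApoE4 arrays 3 or 6. The list held 4 rises and 4 falls under quantile normalization, 15 and 0 with arrays centred on their medians, and 1 and 1 with the brain marker covariate. Ribosomal genes held 11 rises with arrays centred on their medians and 1 with the covariate. Of 25 endoplasmic reticulum chaperone and unfolded protein response genes 6 fell and 0 rose, with 0 falls under the brain marker covariate. Among 22 genes of IGF and insulin signalling 6 fell and 0 rose, and 1 fell with the covariate. The adaptor Pik3r1 was at -0.78 ± 0.18 and passed there (adjusted p = 0.0362), but its 2 other probe sets did not pass without it, at -0.06 and -0.18. Of 47 lysosomal genes 5 rose and 6 fell (2 to 5 and 5 to 8 without 1 array, 3 and 10 under quantile normalization, 6 and 4 with centred arrays), and the alpha-galactosidase Gla rose by 0.53 ± 0.09. Of 25 genes of DNA replication and cell cycle 2 rose and 2 fell (2 to 4 falls without 1 array), and the 2 rises, the sliding clamp Pcna (0.43 ± 0.07) and the tumour suppressor Rb1 (0.46 ± 0.09), also passed with the covariate (adjusted p = 0.00797 and 0.0035).

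Outside the lists the 20 largest falls held genes of varied roles. The adhesion protein Tns1 read 585 to 998 (median 931) in ApoE3 and 248 to 589.6 (median 337) in ApoE4, with 1 or more arrays overlapping (-1.20 ± 0.23, adjusted p = 0.00121). The amino acid transporter Slc38a1 read 642 to 1094 (median 999) and 314 to 701 (median 399) (-1.10 ± 0.20), also with overlap. The adaptor Dok2, a brake on signalling in blood cells, read 118 to 265 (median 154) and 53.5 to 111 (median 67.7), without overlap (-1.05 ± 0.20, adjusted p = 0.000626). The centrosomal scaffold Akap9, at -1.13 ± 0.27, had low signals, 43.2 to 72.6 (median 59.5) in ApoE3 and 4.7 to 32.5 (median 18.1) in ApoE4. With the brain marker covariate Tns1, Slc38a1 and Dok2 passed (adjusted p = 0.0266, 0.02 and 0.0403), and Akap9 did not (adjusted p = 0.0792).

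On chow, with 12 other arrays and the same model, 806 genes passed (9.76%), 341 higher and 465 lower. Of the 2300 genes that passed on high-fat diet, 2079 had the same sign on chow, and 486 passed there with that sign, which is 21.1% of the high-fat genes and 60.3% of the chow genes. The agreement in sign over all genes tested was not counted, so the 2079 have no background beside them. Among the 54 interferon-induced genes 28 rose and 0 fell on chow, with a median of 0.53. Ifit1 rose by 2.07, Ifit3 by 1.40, Usp18 by 1.77 and Bst2 by 1.27 on chow. Long noncoding RNAs had a median of -0.16 and myelin genes of -0.25 there.

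The difference between the genotype effects on the diets was tested for each gene, and 0 of 8261 passed (0%), with 832 at an unadjusted p under 0.05 and a smallest adjusted p of 0.146. Counts that pass on high-fat diet and not on chow are therefore not shown to differ between diets. The leading gene was Neat1, lower in ApoE4 by 1.06 on high-fat diet and at 0.06 ± 0.15 on chow, a difference of -1.12 ± 0.22 (adjusted p = 0.146). It passed with the epithelial marker covariate (adjusted p = 0.0215) and without ApoE3 high-fat array 5 (0.0482). The peptidase Npepps came next, at -0.54 and 0.15 (-0.68 ± 0.14, adjusted p = 0.146), with 0.04 without ApoE4 chow array 5. Its other probe set was at -0.02 on high-fat diet (adjusted p = 0.919). Next came the RNA-binding protein Tial1, at -0.78 and -0.19 (-0.59 ± 0.13), with 1 of its 3 other probe sets not past the threshold on high-fat diet. In the other direction stood the nucleolar protein Npm1, at 0.23 and -0.12 (0.35 ± 0.09, adjusted p = 0.166). On high-fat diet alone Npm1 did not pass with the brain marker covariate (adjusted p = 0.18).

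**Figure D5:**
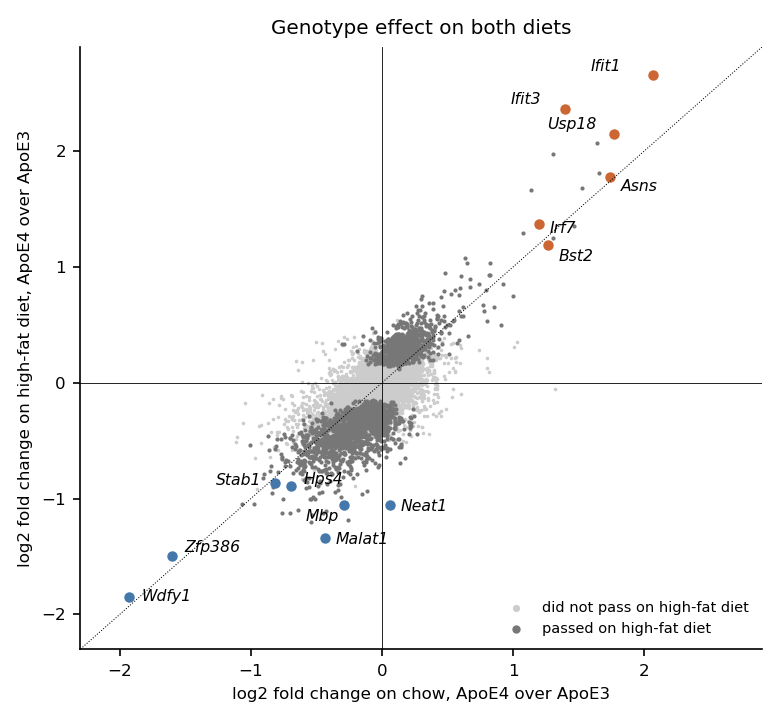
Log2 fold change of ApoE4 over ApoE3 on high-fat diet (vertical) against the same on chow (horizontal) for 8261 genes, dark grey where the gene passed on high-fat diet; the dotted line marks equal values. Asns, Wdfy1 and Zfp386 lie along the line and Ifit1 above it, while Neat1 lies near 0 on chow and at -1.06 on high-fat diet.

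Within males on high-fat diet (3 against 3 arrays) 332 genes passed (4.02%), 172 higher and 160 lower, and within females 1036 passed (12.5%), 386 higher and 650 lower. The count for males was 50 without ApoE4 array 3 and 540 without ApoE4 array 2, that for females was 381 without ApoE4 array 6, and the cause was not tested. The test of the difference between the sexes gave 0 of 8261 genes (0%), with 393 at an unadjusted p under 0.05 and a smallest adjusted p of 0.977. Of the 2300 genes, 2299 had the same sign in both sexes, but both sexes enter the estimate that chose them. Ifit1 rose by 2.55 ± 0.37 in males and 2.77 ± 0.37 in females, Asns by 1.87 ± 0.14 and 1.69 ± 0.14, and Wdfy1 was at -1.79 ± 0.13 and -1.90 ± 0.13.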

How the data were processed

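Per the labels' protocols, captured tissue went into Trizol and was extracted with a Qiagen lipid kit. The deposited values are linear array intensities (signals) from GCOS 1.4, per the submitters' processing notes. The authors' detection calls (Present, Marginal, Absent) served only as a filter, and no use was made of the detection p-values. Signals were analysed as log2(signal + 16). The array has 22690 probe sets, of which 64 are controls. A Present call on 6 or more of the 24 arrays was required, which kept 13936, and 12733 of these name 1 gene. The probe set of highest mean stood for its gene, leaving 8261 of 12393 genes. Between the 2 deposited tables all 544560 signals were equal.

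The model held 1 mean for each genotype and diet and a sex effect, over all 24 arrays (limma 3.58.1, R 4.3.3, empirical Bayes with trend and robust options), and another with 8 means gave the sexes. Benjamini-Hochberg adjustment ran over all genes of a comparison, with two-sided p-values and 0.05 as the threshold. The fit was tested on simulated data. "At least" folds use, on each array of the dim group, the higher of the gene's signal and the lowest Present signal. They do not allow for the spread between arrays. Array measures were compared by exact permutation (924 splits). Promoters are RefSeq's on GRCm38.p6. Tables and figures used Python 3.11.15, numpy 2.4.6, pandas 2.3.3, scipy 1.17.1 and matplotlib 3.10.9.

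Named genes were the 20 largest rises and 20 largest falls that passed, the 8 of smallest p in each list, the leading genes of the difference tests, tested neighbours of Apoe and a few fixed genes. The members and lists were chosen with earlier results of these data known. The number of arrays limits the precision.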

Additional observations from a re-analysis of the deposited data

Results flagged for a closer look

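Of 250 groups of 6 arrays (the named genes and the array measures in each genotype), 15 had 1 array far from the other 5 by Dixon's test, and chance flags about 1 in 20. ApoE3 array 5, a female, stood above the other ApoE3 arrays in 3 interferon-induced GTPases: Gbp6 read 216.5 against 71.3 to 122.7, Igtp 1365 against 515.6 to 808.9, and Iigp1 937.1 against 310.4 to 447.5. In ApoE3 array 6, also a female, the epithelial carrier Ttr was the highest at 25450 against 17300 to 18390, and the mean of the neuron markers was the lowest at 7.274 against 7.443 to 7.526 log2 units. The other ApoE3 arrays that stood apart were array 4 for the actin regulator Eps8l2 (991.7, the others from 1064 to 1103), array 2 for the interferon receptor Ifnar1 (286.1, the others from 335 to 357), array 1 for the proteasome subunit Psmd13 (592.6, the others from 737.8 to 807.8) and again array 4 for the synaptic protein Syp (154.1, the others from 111.6 to 127.5).

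Among ApoE4 arrays, array 1 was highest for the myelin gene Cnp (1190 against 868.9 to 972.8) and the cotransporter Slc12a7 (733.7 against 565.4 to 607.1). Array 2 was lowest for the nucleolar protein Npm1 (5887 against 6928 to 7435), and array 3 highest for the entry inhibitor Ifitm3 (9220 against 6968 to 7733). Array 4 was lowest for Gbp7 (518.6 against 779.7 to 866.6), and array 6 highest for the RNA-activated kinase Eif2ak2 (389.7 against 229.5 to 282.3). The part of these arrays in the results was not tested beyond the fits that leave out 1 array.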

How the results depend on the processing

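Counts of genes are given as all that passed. On high-fat diet, 2300 genes passed, and 579 with the brain marker covariate (243 higher, 336 lower). Under quantile normalization 1612 passed, 824 higher (51.1%, against 38.7%) and 788 lower, and with arrays centred on their medians 2206 passed, 56% of them higher. Each of the other planned settings, which were a pseudocount of 1 or 64, other filters, no sex term, only the 12 arrays, array weights, the mean of probe sets, epithelial, hybridization or 3' to 5' covariates and a fit without the 2 ApoE4 arrays of lowest hybridization signal, stayed within 1.5 times of all 3 counts. Without 1 array the total ran from 1738 (without ApoE4 array 3) to 2547 (without ApoE4 array 2), with 672 to 995 higher and 1066 to 1552 lower. Of the 106 named genes that passed, 98 passed in each of the 12 fits without 1 high-fat array and 66 with the brain marker covariate. With the hybridization control covariate 94 of the 106 passed. App, Ckm, Cnp, Daxx, Eif2ak2, Gbp6, Iigp1, Nefh, Psmc4, Pvr, Slc12a7 and Stat2 did not. With the mean of a gene's probe sets Cnp turned to -0.0068 and did not pass. The cause of these shifts was not tested.

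The difference between diets gave 0 genes, and 2 with the epithelial covariate, Eps8l2 (-0.61, adjusted p = 0.0215) and Neat1 (-1.05, adjusted p = 0.0215). It gave 1 with the hybridization covariate, Eps8l2 (-0.59, adjusted p = 0.0338), and 1 without the 2 arrays of lowest hybridization signal, Npepps (-0.80, adjusted p = 0.049). Without 1 array it ran from 0 to 1 gene, with Npepps without ApoE4 chow array 5 (adjusted p = 0.04) and Neat1 without ApoE3 high-fat array 5 (adjusted p = 0.0482). The difference between sexes ran from 0 to 1, with Cavin1 without ApoE3 array 6 (0.95, adjusted p = 0.00925). Eps8l2 and Cavin1 were named after their values were seen. Of 16 array measures 11 passed, and 7 to 10 without 1 array, where fewer arrays are left (7 without ApoE3 array 5 or ApoE4 arrays 3 or 5). The count for females ran from 381 (without ApoE4 array 6) to 1253 (without ApoE4 chow array 4).

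Replicate numbers are shared between groups, but the labels do not say that they pair samples, and no array correlated best with its own number. For ApoE4 against ApoE3 on high-fat diet, 2281 genes passed with the replicate block, the named genes kept their calls, and 1 gene passed for the difference between diets, Neat1 (-1.12 ± 0.17, adjusted p = 0.0192). The 6 arrays per group, captured tissue of mixed cells and the scaling of each array limit all values.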

Other observations

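Several stress and regulatory lists held few calls, read against the 10.8% of all genes that rose and the 17.1% that fell. Of 16 iron genes 3 rose and 3 fell, and without 1 array 0 to 4 rose and 1 to 3 fell. With the brain marker covariate, as under quantile normalization, 1 rose and 0 fell. Hepcidin (Hamp), the hormone that blocks iron export, read 56.8 to 164 (median 100.4) in ApoE3 and 7.6 to 96.3 (median 61.6) in ApoE4, with overlap (-0.90 ± 0.29, adjusted p = 0.023, 0.0632 without ApoE4 array 6 and 0.0669 with the brain marker covariate). Of 29 genes of oxidative stress defence 4 rose and 3 fell (median 0.07), with 3 to 7 rises and 0 to 3 falls without 1 array, and 1 of each with the covariate. Of 17 clock genes 3 fell and 0 rose, and of 21 immediate early genes 4 fell and 0 rose. The immediate early falls numbered 3 to 6 without 1 array (6 without ApoE4 array 2), 2 under quantile normalization and 1 with the covariate. Ccn1, a secreted matrix protein of that list, read 136 to 226 (median 184) in ApoE3 and 65.6 to 118 (median 99.0) in ApoE4 (-0.84 ± 0.15, adjusted p = 0.000316, and 0.0175 with the brain marker covariate).

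The genes of smallest p for the difference between sexes on high-fat diet did not pass (limma, adjusted p = 0.977 for all). Among them the kinase Sik1 was at -0.27 ± 0.18 in males and -1.15 ± 0.18 in females, and the p53 inhibitor Mdm4 at -0.35 ± 0.15 and -1.13 ± 0.15. In the other direction stood the ceramidase Acer2, at -0.81 ± 0.19 in males and 0.32 ± 0.19 in females.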
